A study of Mus musculus with 3 samples.

Results

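Sonic hedgehog (Shh) is the secreted signal of the polarizing region, the posterior mesenchyme of the limb bud. The cells described here are the 185 cells of the limb mesenchyme cluster (cluster 0 in the deposited annotation) in which at least 1 Shh transcript was counted, out of 43950 cells in the series and 34236 in that cluster. They are called Shh-positive cells. Shh itself chose them, so its values are given as a description and support nothing else. In each library every Shh-positive cell was set beside the 10 cells of the same cluster and library that had no Shh count and were nearest to it in total count, which gave 1850 matched cells.

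The material was the forelimb bud of wild-type mouse embryos, taken apart with trypsin. Single cells were captured in droplets (10x Genomics, 3′ kit of version 2), and each captured RNA molecule was counted once by its unique molecular identifier (UMI). There were 3 libraries from 1 reaction each: B6_E9.5 (strain c57bl6.J, stage E9.5), B6_E10.5 (c57bl6.J, E10.5) and 129_E9.5 (129S6.sv, E9.5). The number of embryos in each reaction is not given, and no group carried a mutation or a treatment. The libraries held 12773, 18957 and 12220 cells, with 124388358, 119942504 and 93029510 UMIs, and 29, 134 and 22 Shh-positive cells, respectively. A test over these libraries sets the difference between the 2 kinds of cell against its spread over 3 reactions that differ in stage and strain. That spread is estimated in part from all genes, and sums with more UMIs weigh more. A small p therefore does not show that the 3 libraries were alike.

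In the limb bud the transcription factor Hand2 and the 5′ HoxD proteins act on a distant Shh enhancer that lies in an intron of Lmbr1, while Gli3 restrains the posterior programme in the anterior mesenchyme. Shh binds its receptor Patched 1 (Ptch1) with the help of the co-receptors Gas1, Cdon and Boc, which frees Smoothened (Smo) and lets Gli proteins switch on targets such as Ptch1 and Gli1. The signal sets digit number and identity and keeps up a feedback loop with the fibroblast growth factors (FGFs) of the apical ectodermal ridge through the BMP antagonist Gremlin 1 (Grem1), which the Shh-producing cells themselves are known to lack.

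Shh (chromosome 5, 28456815 to 28467256, minus strand, GRCm38) was counted at 41 UMIs in B6_E9.5, 289 at E10.5 and 23 in 129_E9.5. The share of limb mesenchyme cells with a Shh UMI was 0.300% (exact 95% interval 0.201 to 0.430) in B6_E9.5, 0.874% (0.733 to 1.03) at E10.5 and 0.238% (0.149 to 0.361) in 129_E9.5. The E10.5 share was thus the highest, and its interval did not overlap those of the E9.5 libraries, which overlapped each other. Intervals of this kind cover counting error only. In 20 of the 29 B6_E9.5 cells, 64 of the 134 B6_E10.5 cells and 21 of the 22 129_E9.5 cells the call rested on 1 UMI. At least 3 UMIs were found in 3, 45 and 0 cells, with a maximum of 7 in B6_E10.5.

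Deeper cells were more often Shh-positive. The median total was 19884 UMIs in Shh-positive cells of B6_E9.5 against 8030 in its Shh-negative limb mesenchyme, 8021.5 against 5404 at E10.5 and 8495 against 7462 in 129_E9.5. After every cell was thinned to 3000 UMIs, with shallower cells left out, the shares were 0.0754% of 6632 cells in B6_E9.5, 0.601% of 12144 at E10.5 and 0.141% of 8503 in 129_E9.5. The E10.5 share stayed above both others, and 129_E9.5 now lay above B6_E9.5, with overlapping intervals. Matching removed the difference in depth, with medians of 19888.5, 8021 and 8494.5 UMIs in the matched cells.

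Free RNA in the droplets can give a UMI to a cell that does not express the gene, so the other clusters served as background. In B6_E9.5 and 129_E9.5 none of 3095 and none of 2987 cells outside the limb mesenchyme had a Shh UMI, which allows shares of up to 0.0969% and 0.10%. In B6_E10.5 there were 7 such cells among 3632 (0.193%, 0.0775 to 0.397). Of these, 3 were among 401 erythroid-like cells (0.748%, 0.155 to 2.17), whose median of 14608 UMIs was well above the 5422 of the limb mesenchyme. That erythroid interval overlaps the limb mesenchyme share. After thinning, none of 384 erythroid-like cells had a Shh UMI, which allows a share of up to 0.781%, above the 0.601% of the thinned limb mesenchyme, so the shares could not be told apart at this depth. In CPM (counts per 1000000 UMIs), Shh stood at 3.19 in the limb mesenchyme of B6_E10.5, 0.581 in its endothelium-like, 0.504 in its erythroid-like, 0.167 in its muscle progenitor-like and 0.162 in its ectoderm-like cells. At least 2 Shh UMIs were found in 70 of 15325 limb mesenchyme cells of that library (0.457%), 1 of 707 endothelium-like cells (0.141%), 1 of 1498 muscle progenitor-like cells (0.0668%), 0 of 401 erythroid-like cells and 0 of 1026 ectoderm-like cells; the last counts of 0 allow shares of up to 0.748% and 0.292%.

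**Figure D1:**
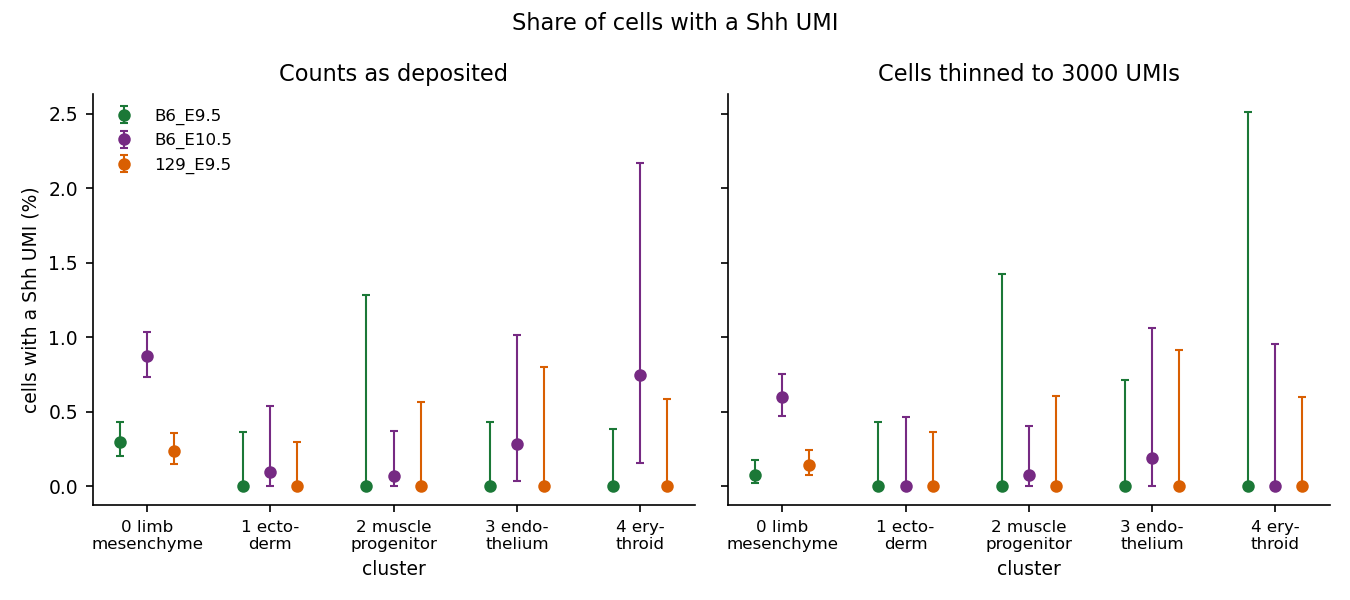
Share of cells with at least 1 Shh UMI (vertical axis, percent) in the 5 clusters, with points coloured by library and bars for exact 95% intervals, as deposited (left) and after thinning every cell to 3000 UMIs (right). In cluster 0 the B6_E10.5 point is the highest in both panels, at 0.874% and 0.601%.

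The label of polarizing region was checked against Hand2, Hoxd13 and Ptch1, which the choice of cells did not use. At least 1 of these was detected in 21 of 29 Shh-positive cells of B6_E9.5, 120 of 134 of B6_E10.5 and 19 of 22 of 129_E9.5, against 160 of 290, 612 of 1340 and 68 of 220 matched cells. All 3 genes were detected together in 37 Shh-positive cells of B6_E10.5 (27.6%, 20.2 to 36) and in 48 of its matched cells (3.58%, 2.65 to 4.72). No marker of the 3 was seen in 8, 14 and 3 Shh-positive cells. Read the other way, 68 of the 733 B6_E10.5 limb mesenchyme cells with both Hand2 and Hoxd13 held a Shh UMI (9.28%, 7.28 to 11.6), against 1.02% with Hand2 alone, 1.84% with Hoxd13 alone and 0.197% with neither. Median depth also increased along the classes, from 4902 UMIs with neither to 9123 with both. In B6_E9.5 the share with both was 2.34% (0.946 to 4.76), and in 129_E9.5 it was 0.855% (0.104 to 3.05), the latter with an interval that overlaps all 3 other classes of that library.

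Markers of other cell types, erythroid and neural genes aside, were mostly low in the Shh-positive cells. The 12 ectoderm and ridge genes summed to 16.8, 5.37 and 4.87 CPM in B6_E9.5, at E10.5 and in 129_E9.5, below the 23.7, 15.0 and 15.6 of the matched cells, and Epcam, Cdh1, Krt14 and Trp63 were at 0 in all Shh-positive cells. Notochord, floor plate and gut endoderm also make Shh in the embryo. Of the 11 genes of that list 7 had a row in the matrix, while Foxa1, Foxa2, Nkx2-1 and Nkx2-2 had none. The 7 summed to 3.73, 8.05 and 0 CPM, near the 3.17, 6.62 and 2.43 of the matched cells. All 9 of their UMIs in Shh-positive cells of B6_E10.5 were of Cdx2. Endothelial markers reached 7.47, 1.79 and 0 CPM and myeloid markers 0, 0.894 and 0. Erythroid markers, which free haemoglobin RNA can carry, were at 1004, 293 and 462 CPM against 966, 280 and 402 in matched cells. More than 20 haemoglobin UMIs were found in 11 of the 29 Shh-positive and 85 of the 290 matched cells of B6_E9.5, and 14 of those 29 held more than 20000 UMIs. Doublets were not called here, and their part in the results was not tested. The 8 general limb mesenchyme markers summed to 1545, 1515 and 1377 CPM in Shh-positive cells and 1500, 1808 and 1518 in matched cells. None of the 8 passed the test described next, which called 2.65% of all genes tested.

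To ask which other genes differ where Shh is made, UMIs were summed over the Shh-positive and the matched cells of each library and compared with edgeR's quasi-likelihood test, with the library as a block, over 7475 genes with a mean of at least 10 CPM. At a Benjamini-Hochberg adjusted p of at most 0.05, 92 genes were higher in Shh-positive cells, which is 1.23% of the genes tested, and 106 were lower (1.42%). Log2 fold changes are given with a standard error. It was worked back from the test, as the absolute log2 fold change over the square root of the F statistic. DESeq2 with the same design called 30 genes higher and 21 lower, and edgeR without the library block called none. Of the 63 genes called here and named below, 30 were also called without each library in turn and 29 by DESeq2. DESeq2 did not call Cdon (adjusted p = 0.156), Sfrp2 (0.220), Meis1 (0.459), Meis2 (0.613) or Crabp2 (0.329), which were called without each library in turn. It also missed Hoxd11, Hoxa13, Hoxc9, Tbx2, Sall1, Tfap2b, Nkd1, Wnt5a, Rspo3, Dusp6, Spry1, Rdh10, Lmo2, Nrp2, Ier2 and Jund. Missed too were Gli3, Irx5, Asb4, Id1, Grem1, Hoxb5, Hoxc5, Col2a1, Col9a1, Scx, Osr2, Nusap1 and Tcf15. B6_E10.5 holds most Shh-positive cells, and without it 47 genes were called higher and 38 lower.

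Among the genes that answer to Hedgehog signalling, Ptch1, the receptor and a direct target, was higher in Shh-positive cells of every library. It stood at 41.1 CPM against 16.1 in matched cells of B6_E9.5, 104.7 against 37.0 at E10.5 and 102 against 18.5 in 129_E9.5 (log2 fold change 1.58 ± 0.19, adjusted p = 3.29e-06). The other 3 response genes were too low to test. With no filter on low counts, neither Gli1 (0.70, adjusted p = 0.816) nor Hhip (-2.41, adjusted p = 0.685) passed. Gli1, the transcription factor most used as a readout of the pathway, was counted at 4, 13 and 4 UMIs. Its levels were 7.47 against 0.933 CPM in B6_E9.5 and 19.5 against 3.41 in 129_E9.5, but 11.6 against 11.7 in B6_E10.5, so that the excess seen at E9.5 on 4 UMIs a library was not seen at E10.5. Hhip, a target that binds and sequesters the ligand, had 1, 0 and 0 UMIs in Shh-positive cells, while 47 of 1340 matched B6_E10.5 cells had one (0 of 134 allows up to 2.24%).

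The proteins that help a cell to receive Shh went the opposite way. Gas1, a membrane co-receptor, was at 63.5, 64.4 and 97.3 CPM in Shh-positive cells of B6_E9.5, of E10.5 and of 129_E9.5 and at 312, 304 and 198 in matched cells (-2.10 ± 0.16, adjusted p = 1.73e-09). A Gas1 UMI was found in 37 of 134 Shh-positive and 1002 of 1340 matched B6_E10.5 cells. Cdon, a second co-receptor, was at 5.6, 7.16 and 4.87 CPM against 21.1, 24.7 and 29.2 (-1.95 ± 0.35, adjusted p = 0.000787). Both were lower in all 3 libraries, and both calls held without each library in turn, but DESeq2 called Gas1 and not Cdon. Boc, the third, was below the level tested, with 0, 3 and 1 UMIs against 32, 249 and 16 in matched cells. With no filter on low counts its log2 fold change was -2.95 with an adjusted p of 3.36e-05. Gli3, whose repressor form opposes Shh, was at 69.1, 37.6 and 48.7 CPM against 111, 81.5 and 93.9 (-0.96 ± 0.17, adjusted p = 0.000753), a call that was lost without B6_E10.5 (-0.76, adjusted p = 0.0682). Smo, the transducer that all responding cells need, was at 80.3, 123 and 107 CPM against 95, 116 and 118 (-0.09 ± 0.14, adjusted p = 0.924). Of the 8 genes of release and reception that were tested, 3 were lower and 0 higher, with a median log2 fold change of -0.45 beside 0.01 for all genes.

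Genes of the posterior limb were higher as a group. Of 9 tested, 8 were called higher and 0 lower, with a median of 1.53, and Hoxd10 was the exception at 0.07. Hand2 stood at 70.9 CPM against 40.9 in B6_E9.5, 258 against 70.2 at E10.5 and 82.7 against 22.9 in 129_E9.5 (1.53 ± 0.17, adjusted p = 9.63e-07). Tbx3, a repressor of the posterior margin, was at 108, 98.4 and 122 CPM against 32.8, 33.0 and 30.2 (1.66 ± 0.16, adjusted p = 9.71e-08), close to the same level in all 3 libraries. Prdm1, a transcriptional repressor, was at 39.2, 25.0 and 19.5 CPM against 13.4, 2.42 and 4.87 (2.30 ± 0.36). Those 3 were called without each library in turn. Tbx2 (1.45 ± 0.31) and Sall1 (1.06 ± 0.24) passed as well, but Tbx2 missed the threshold without 129_E9.5 (adjusted p = 0.0571) and without B6_E10.5 (0.504), and so did Sall1 (0.0563 and 0.476). Bmp2, a BMP ligand of the posterior bud, lay below the level tested, with 12, 25 and 0 UMIs against 20, 59 and 0, or 22.4 against 3.73 CPM in B6_E9.5 and 22.4 against 5.28 in B6_E10.5. Without the filter it passed at 2.18 (adjusted p = 4.52e-05), while Jag1 of the same list, also below the level tested, did not (0.18, adjusted p = 0.955).

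The 5′ HoxD genes sit side by side on chromosome 2 and come on in order of position. Hoxd13 (74668310 to 74671599) was at 20.5 against 6.72 CPM in B6_E9.5, 187 against 30.4 at E10.5 and 19.5 against 7.78 in 129_E9.5 (2.32 ± 0.21, adjusted p = 2.54e-08). Hoxd12 was counted once in Shh-positive cells of B6_E9.5, 5 times in 129_E9.5 and 258 times in B6_E10.5, where it reached 231 CPM against 37.7 (2.54 ± 0.19, adjusted p = 1.73e-09). Both calls rest on B6_E10.5: without it Hoxd13 had an adjusted p of 0.29 (1.5) and Hoxd12 was too low to test. Hoxd11 was at 22.4 against 9.52 CPM in B6_E9.5, 229 against 159 at E10.5 and 268 against 39.4 in 129_E9.5 (1.1 ± 0.25, adjusted p = 0.00937). That excess was largest in 129_E9.5, and without that library the change was 0.54 with an adjusted p of 0.23; without B6_E10.5 it was 2.25. Hoxd10 (138, 100 and 102 CPM against 119, 96.3 and 101) and Hoxd9 (-0.19 ± 0.15, adjusted p = 0.728) did not pass. Hoxa13, which marks the future hand and foot, had 60 UMIs at E10.5 (53.7 against 7.25 CPM; 2.76 ± 0.40, adjusted p = 6.34e-05) and 0 in the Shh-positive cells of both E9.5 libraries. Only the Shh-positive sum of B6_E10.5 lifted Hoxa13 over the filter of 10 CPM, so its call describes a gene picked by being high there. Hoxb9 (1.91 ± 0.20) and Hoxc9 (2.04 ± 0.48), of the paralogue group that precedes Hand2 in the forelimb field, were higher in all 3 libraries. In all, 6 of 11 tested 5′ Hox genes were higher and 0 lower. Hoxc9 was too low to test without 129_E9.5. Of 15 tested 3′ Hox genes, 3 were lower (Hoxb5, Hoxc4 and Hoxc5) and 0 higher, and of these Hoxc4 alone was called without each library in turn (-2.11 ± 0.31). Hoxc5 lost its call without any of the 3, with adjusted p values from 0.108 to 0.242, and Hoxb5 without B6_E10.5 (0.0891) and without 129_E9.5 (0.119), while it came to -2.30 without B6_E9.5.

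**Figure D2:**
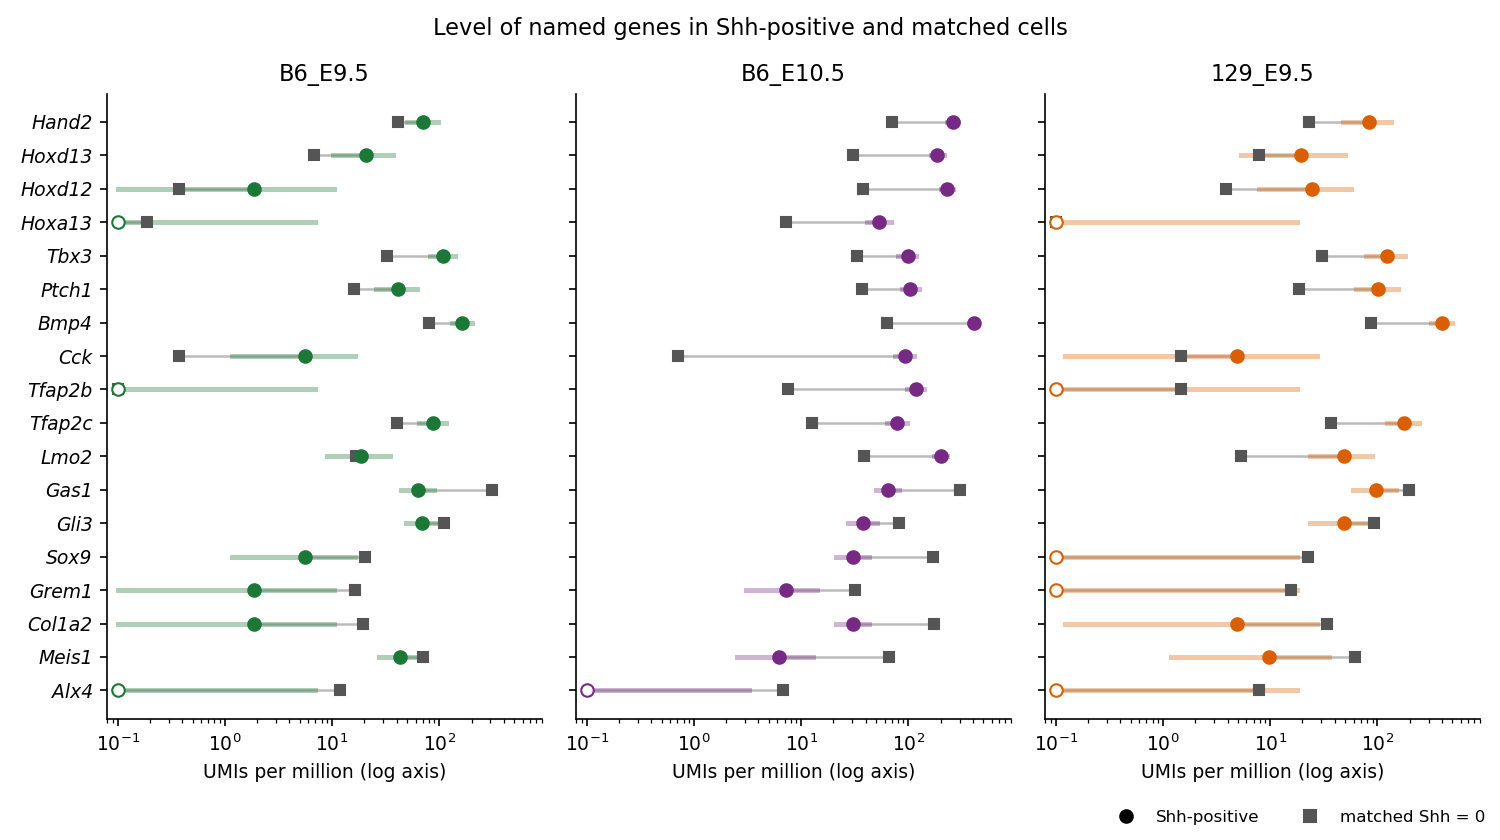
Level of 18 named genes in CPM (log axis) in the Shh-positive cells (coloured circles, with exact 95% Poisson intervals as wide bars) and in matched Shh-negative cells (grey squares) of each library, with open symbols at the left edge for a count of 0. Hand2, Tbx3, Ptch1 and Bmp4 lie to the right of their squares in all 3 panels, and Gas1, Col1a2 and Alx4 to the left.

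Anterior genes were lower or not called: 4 of 8 tested were lower and 0 higher, with a median of -0.91. Irx3, a proximal and anterior homeobox gene, was at 33.6, 14.3 and 43.8 CPM against 120, 67.0 and 113 (-1.93 ± 0.20, adjusted p = 3.14e-07). Asb4 was at 336 against 379 CPM in B6_E9.5, 131 against 695 at E10.5 and 234 against 571 in 129_E9.5 (-1.35 ± 0.23, adjusted p = 0.000327; 0.0898 without 129_E9.5), a difference that was small in B6_E9.5. It came to -2.10 without B6_E9.5 and -0.55 without B6_E10.5. Irx5 passed (-1.27 ± 0.33, adjusted p = 0.0301) but lost its call without B6_E10.5 (adjusted p = 0.751) and without 129_E9.5 (0.14), and came to -2.10 without B6_E9.5. Alx4, a repressor of Shh in the anterior bud, was not counted in any Shh-positive cell, while matched cells held 63, 75 and 16 UMIs. Against a floor of 3 UMIs a library that is at least 2.10-fold lower in B6_E9.5 and at least 2.50-fold lower in B6_E10.5; in 129_E9.5 the floor lies above the matched level. Lhx9 and Alx1 of the same list did not pass.

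Regulators and neighbours of Shh were compared next. Ets2, an ETS factor that acts through the Shh limb enhancer, was at 172, 195 and 199 CPM against 95.6, 80.5 and 58.9 (1.18 ± 0.14, adjusted p = 1.78e-06) and was detected in 94 of 134 Shh-positive B6_E10.5 cells against 560 of 1340 matched. Etv4, an ETS factor known to confine Shh to the posterior bud, did not pass (0.59 ± 0.19, adjusted p = 0.122). Lmbr1 (chromosome 5, 29229802 to 29378390, minus strand), whose intron holds the enhancer, was detected in 6, 13 and 3 Shh-positive cells (11.2, 13.4 and 14.6 CPM against 4.67, 7.25 and 9.73; 0.88 ± 0.40, adjusted p = 0.372). Mnx1 (29473034 to 29478470, minus strand), a homeobox gene of motor neurons that lies beyond Lmbr1 from Shh, was singled out after its values were seen. It had no UMI in limb mesenchyme at E9.5. In B6_E10.5 it was found in 13 of 134 Shh-positive cells (9.70%, 5.27 to 16.0) and 3 of 1340 matched cells (0.224%, 0.0462 to 0.653). Of the 49 limb mesenchyme cells of that library with a Mnx1 UMI, those 13 were Shh-positive. Mnx1 was below the level tested; with no filter its log2 fold change was 5.22 (adjusted p = 0.000785). Rnf32, which lies between Shh and Lmbr1, had 0, 3 and 1 UMIs, and Cnpy1 on the other side of Shh had none.

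Of the BMP pathway, Bmp4 stood out. This BMP ligand was at 164 against 79.3 CPM in B6_E9.5, 405 against 63.1 at E10.5 and 399 against 86.6 in 129_E9.5 (2.04 ± 0.18, adjusted p = 1.54e-08). A Bmp4 UMI was present in 116 of 134 Shh-positive cells of B6_E10.5 and in 377 of 1340 matched cells. Grem1, the BMP antagonist, was counted 1, 8 and 0 times, or 1.87, 7.16 and 0 CPM against 16.4, 31.5 and 15.6 (-2.46 ± 0.39, adjusted p = 0.000181; too low to test without B6_E10.5). Among the responders, Id1 (-0.50 ± 0.11) and Id2 (-1.08 ± 0.13), which BMP signalling induces, were lower, and Msx1 was not called (0.30 ± 0.12, adjusted p = 0.271; 0.49 and 0.0280 without B6_E9.5). In the list as a whole 1 of 11 tested genes was higher and 3 were lower. The Id1 call was lost without B6_E10.5 (adjusted p = 0.0834) and without 129_E9.5 (0.0567).

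Of 11 tested genes of WNT signalling, 4 were higher, 3 lower and 4 not called. The nuclear effector Lef1 (327, 146 and 219 CPM against 209, 57.1 and 98.8; 0.99 ± 0.13, adjusted p = 8.53e-06), the feedback inhibitors Nkd1 (0.68 ± 0.14) and Apcdd1 (1.31 ± 0.22) and the ligand Wnt5a (0.70 ± 0.17) were higher. The secreted antagonists Sfrp1 (5.6, 8.05 and 14.6 CPM against 41.6, 49.2 and 67.1; -2.64 ± 0.28, adjusted p = 3.80e-07) and Sfrp2 (-1.36 ± 0.25) and the agonist Rspo3 (-1.75 ± 0.34) were lower. Lef1, Apcdd1, Sfrp1 and Sfrp2 were called without each library in turn (Apcdd1 at 0.75 without B6_E10.5); Wnt5a was not called without B6_E10.5 (0.32, adjusted p = 0.913) or without 129_E9.5 (adjusted p = 0.102), nor was Nkd1 (0.139 and 0.0571), and Rspo3 was too low to test without B6_E10.5. For the response to FGF from the ridge, 2 of 13 tested genes were higher and 0 lower. They were the feedback inhibitors Dusp6 (84.0, 309 and 165 CPM against 88.1, 153 and 136; 0.55 ± 0.15, adjusted p = 0.0389) and Spry1 (29.9, 85.9 and 29.2 against 25.2, 23.1 and 14.1; 1.30 ± 0.24). In Dusp6 the excess lay in B6_E10.5, and without that library both missed the threshold (0.06 with an adjusted p of 0.983 for Dusp6, 0.44 with 0.872 for Spry1). Dusp6 also missed it without 129_E9.5 (0.152).

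Of 11 tested proximal limb and retinoic acid genes, 4 were lower, 1 was higher and 6 were not called. Meis1 and Meis2, homeobox genes of the proximal limb, stood at 42.9, 6.26 and 9.73 CPM against 70.5, 65.9 and 61.3 (-1.95 ± 0.31, adjusted p = 0.000185) and at 172, 47.4 and 131 against 270, 193 and 221 (-1.22 ± 0.18, adjusted p = 5.64e-05). The Meis1 difference was -3.32 without B6_E9.5 and -1.03 without B6_E10.5, called both times, and Meis2 was -0.69 without B6_E10.5. DESeq2 called neither Meis1 (adjusted p = 0.459) nor Meis2 (0.613). Crabp2, which binds retinoic acid, was lower (-1.05 ± 0.14; -0.63 without B6_E10.5), and Rdh10, which makes it, was higher in the fit (1.12 ± 0.28, adjusted p = 0.0265) but not without B6_E9.5 (0.52, adjusted p = 0.825) or 129_E9.5 (0.115). In the chondrogenesis and tendon list 5 of 9 tested genes were lower, 0 higher and 4 not called, with a median of -1.52. Sox9, the master regulator of cartilage, was at 5.6, 30.4 and 0 CPM against 20.3, 170 and 22.4 (-2.53 ± 0.25, adjusted p = 9.71e-08) and was seen in 14 of 134 Shh-positive against 645 of 1340 matched B6_E10.5 cells. The tendon factor Scx (-1.96 ± 0.34), the collagens Col2a1 (-1.52 ± 0.36) and Col9a1 (-2.18 ± 0.32) and Osr2 (-2.18 ± 0.39) passed as well, all 4 on counts that were too low to test without B6_E10.5; Col2a1 also missed the threshold without 129_E9.5 (adjusted p = 0.0639).

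Genes of small p outside those lists came next. Cck, which encodes the peptide hormone cholecystokinin, had 103 UMIs in 30 of the 134 Shh-positive B6_E10.5 cells and 8 UMIs in 4 of the 1340 matched cells, or 92.1 against 0.716 CPM. It had 3 UMIs in B6_E9.5 and 1 in 129_E9.5 (6.03 ± 0.52, adjusted p = 1.54e-08). Tfap2b, an AP-2 transcription factor, was found in 51 of 134 Shh-positive and 43 of 1340 matched B6_E10.5 cells (117 against 7.61 CPM; 3.74 ± 0.35, adjusted p = 7.37e-08) and in no Shh-positive cell at E9.5. Nearly all Cck UMIs and all Tfap2b UMIs of Shh-positive cells thus came from B6_E10.5. Both genes were too low to test without that library, and DESeq2 called Cck (adjusted p = 1.15e-07) but not Tfap2b (1.00). Its paralogue Tfap2c was spread over all 3 libraries, at 87.7, 78.7 and 175 CPM against 40.7, 12.7 and 37.0 (1.96 ± 0.21, adjusted p = 3.24e-07).

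Further genes of small p were Lmo2, a LIM-domain transcription cofactor (18.7, 199 and 48.7 CPM against 16.8, 38.4 and 5.35; 1.97 ± 0.25), Hey1 (1.66 ± 0.22), Nrp2 (1.87, 446 and 63.2 against 9.71, 117 and 15.6; 1.65 ± 0.22) and Tril (239, 394 and 360 against 176, 112 and 138; 1.23 ± 0.15). Without B6_E10.5, Lmo2 (1.09, adjusted p = 0.337), Hey1 (0.396) and Nrp2 (0.72, 0.813) missed the threshold, and Tril came to 0.78. In Nrp2 the B6_E9.5 cells lay below their matched cells, although its adjusted p in the edgeR test of all 3 libraries was 1.11e-05. Other higher genes of small p were Zfp503, a zinc-finger repressor (153, 161 and 161 CPM against 81.2, 58.6 and 55.9; 1.24 ± 0.14), and Dok4, an adaptor protein (121, 24.1 and 146 against 41.2, 7.34 and 20.9; 1.87 ± 0.22). Both were called without each library in turn. Lower genes of smallest p were matrix genes and nuclear receptors of differentiating or proximal mesenchyme. The collagen Col1a2 was at 1.87, 30.4 and 4.87 CPM against 19.2, 175 and 33.6 (-2.64 ± 0.24, adjusted p = 2.52e-08), and Mfap4, a microfibril protein, at 29.9, 58.1 and 24.3 against 67.0, 225 and 101 (-1.84 ± 0.18). Nr2f1, an orphan nuclear receptor, was at 14.9, 9.84 and 9.73 against 60.7, 58.2 and 46.2 (-2.38 ± 0.26), and Lpar1, a lysophosphatidic acid receptor, at 31.7, 101 and 73.0 against 70.4, 247 and 173 (-1.31 ± 0.15). Lhfp was lower too (-1.97 ± 0.23). All 5 of these lower genes were called without each library in turn.

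**Figure D3:**
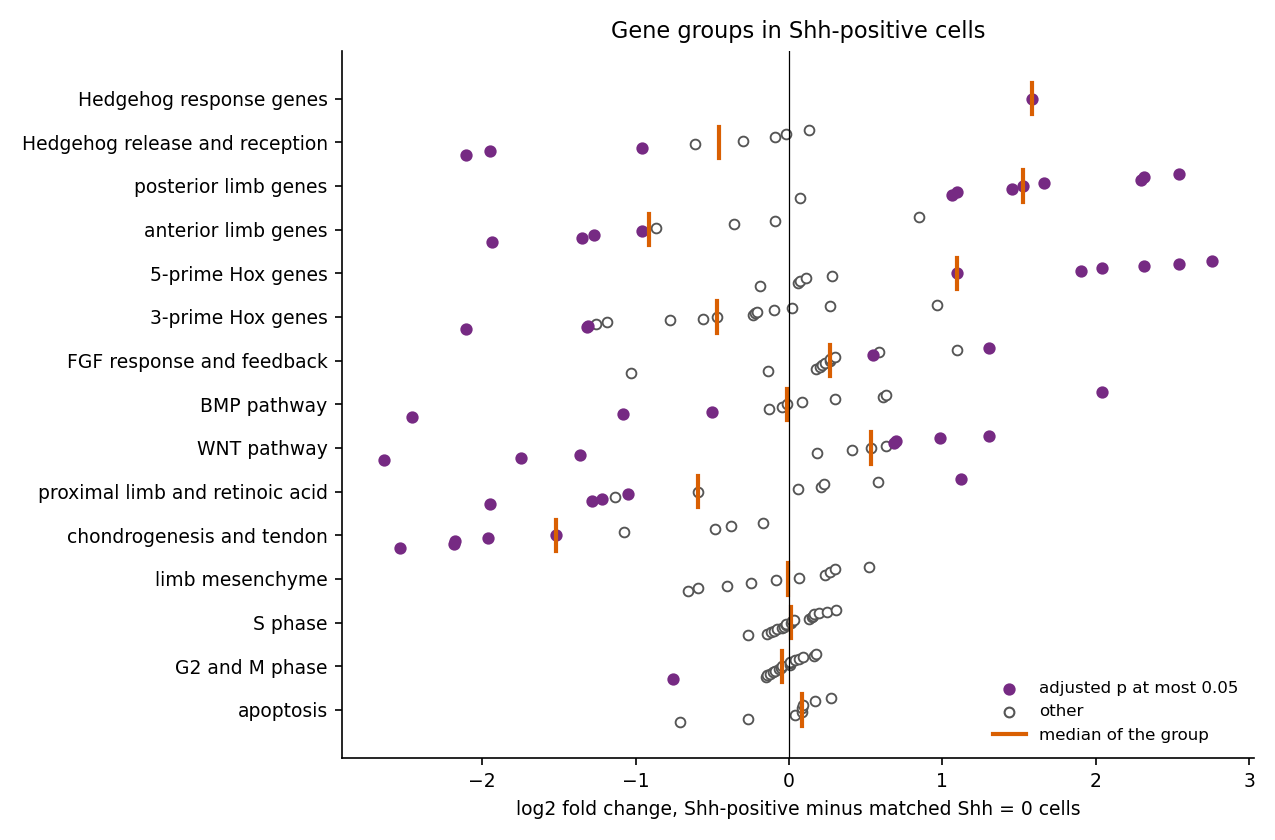
Log2 fold change of every tested gene of 15 gene groups (horizontal axis), Shh-positive minus matched Shh-negative cells, with filled points for an adjusted p of at most 0.05 and an orange bar at the group's median. Posterior and 5′ Hox genes lie to the right, with medians of 1.53 and 1.1, and chondrogenesis and tendon genes to the left at -1.52, while S phase genes lie around 0.02.

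Several groups showed no call in either direction: 0 of 19 S phase genes, 0 of 10 limb mesenchyme genes and 0 of 8 apoptosis genes. Their medians were 0.02, -0.01 and 0.09. Of all genes tested 2.65% were called, and at that share lists of this size would hold few calls or none. In the G2 and M list Nusap1 alone passed (-0.76 ± 0.21, adjusted p = 0.0491). Without each library in turn its adjusted p was 0.0704 to 0.231. The dorsal gene Lmx1b was at 85.9, 25.9 and 68.1 CPM against 52.1, 23.9 and 52.1 (0.41 ± 0.19, adjusted p = 0.415). Markers of neighbouring trunk tissue were lower: the somite and sclerotome list summed to 1.87, 16.1 and 4.87 CPM against 12.1, 77.3 and 19.5, and the flank and mesothelium list to 5.6, 38.5 and 19.5 against 42.2, 91.5 and 43.3. The tested members of those lists, Tcf15 (-2.34 ± 0.44; too low to test without B6_E10.5) and Tbx18 (-1.50 ± 0.24), were lower. The part of such cells in the other lower genes was not tested. Of stress genes, Ier2 was higher (0.39 ± 0.10) and Jund lower (-0.60 ± 0.12). Neither call held without B6_E10.5 (adjusted p = 0.0525 and 0.226), and Ier2 also missed the threshold without B6_E9.5 (0.132) and without 129_E9.5 (0.302).

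A stricter comparison drew the matched cells from limb mesenchyme that had a Hand2 UMI but no Shh UMI, so that the comparison cells were posterior by this mark. The Shh-positive cells were not held to the same rule, and 19 of 29 in B6_E9.5, 102 of 134 at E10.5 and 9 of 22 in 129_E9.5 had a Hand2 UMI. Of 7485 genes, 92 were higher (1.23%) and 106 lower (1.42%), the same counts as before by coincidence. This comparison uses the same Shh-positive cells as the first, so agreement between them is no separate evidence. Cck (5.73 ± 0.48), Bmp4 (405 against 63.8 CPM in B6_E10.5; 1.85 ± 0.17, adjusted p = 2.42e-09), Tfap2c (1.93 ± 0.20) and Tril (1.2 ± 0.13), a Toll-like receptor adaptor, led the higher genes by p. Tfap2b (2.33 ± 0.27), Lmo2 (1.57 ± 0.19) and Hey1, a Notch target (1.49 ± 0.21), followed. Sox9 (-2.74 ± 0.25), the growth factor Ptn (526, 480 and 482 CPM against 1038, 929 and 881; -0.98 ± 0.09), Gas1 (-1.65 ± 0.15) and Mfap4 (-1.78 ± 0.17) led the lower genes. Col1a2 (-2.32 ± 0.24), Sfrp1 (-2.71 ± 0.29) and Mab21l2 (-2.21 ± 0.24) came next.

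Hoxd13 (1.24 ± 0.20), Hoxd12 (1.37 ± 0.19), Hoxa13 (2.38 ± 0.37), Tbx3 (1.07 ± 0.15), Tbx2 (1.06 ± 0.29), Prdm1 (1.63 ± 0.30) and Ptch1 (41.1, 104.7 and 102 CPM against 22.4, 60.8 and 46.8; 0.82 ± 0.17, adjusted p = 0.00262) also passed against Hand2-positive cells. Hoxd11 (0.38 ± 0.18, adjusted p = 0.395; 1.22 and called without B6_E10.5), Sall1 (0.78 ± 0.25, adjusted p = 0.091) and Gli1 (-0.13 ± 0.43, adjusted p = 0.97) did not. Grem1 was lower by more than before (-2.94 ± 0.39; 7.16 against 48.3 CPM in B6_E10.5), and Gli3 (-0.75 ± 0.17) and Cdon (-1.72 ± 0.37) were lower. Against these cells 5 of 13 FGF response genes were higher: Etv4 (0.68 ± 0.18, adjusted p = 0.0319), Spry4 (1.12 ± 0.31) and Lhx2 (0.76 ± 0.18) besides Dusp6 and Spry1. Msx1 (0.86 ± 0.17) and Bmp7 (0.70 ± 0.18) were higher too, and Shox2 (-0.92 ± 0.20) and Pdgfra (-0.79 ± 0.21) lower. Bmp4 came to 1.22 and Tril to 0.77 without B6_E10.5. Of the 31 named genes called here, 9 were called without each library in turn and 15 by DESeq2. The calls that DESeq2 did not make were those of Cck (adjusted p = 0.153), Ptch1 (0.153), Hoxd13 (0.214), Prdm1 (0.0749), Gli3 (0.553), Cdon (0.575), Bmp7 (0.929) and, each at 1.00, Tfap2b, Hoxa13, Tbx2, Etv4, Spry4, Lhx2, Msx1, Shox2 and Pdgfra. Without B6_E10.5 the call was lost for Ptch1 (adjusted p = 0.0511), Prdm1 (0.102), Cdon (0.119), Pdgfra (0.211), Gli3 (0.354), Lmo2 (0.367), Hey1 (0.663), Bmp7 (0.675), Hoxd13 (0.759), Msx1 (0.85), Spry4 (0.905), Tbx2 (0.909), Lhx2 (0.924), Etv4 (0.932) and Shox2 (0.998), while Cck, Tfap2b, Sox9, Mab21l2, Hoxd12, Hoxa13 and Grem1 were then too low to test. Pdgfra also missed the threshold without B6_E9.5 (0.12). The limit that the filter sets on the calls of Cck, Tfap2b and Hoxa13 in the first comparison holds here too.

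Stage was compared within the Shh-positive cells of strain c57bl6.J as ratios of CPM, B6_E10.5 over B6_E9.5. With 1 library a stage there is no test, and intervals cover counting error only. Among the 1882 genes (Shh left out of the counts that follow) whose higher library reached 100 CPM and 20 UMIs, the E10.5 value was 2-fold higher or more for 89 (4.73%) and 2-fold lower or more for 54 (2.87%). With TMM factors, which shift all log2 ratios by -0.14, the counts were 64 and 81. The neuropilin Nrp2 had the largest ratio, from 1 UMI (1.87 CPM) to 499 (446 CPM), or 239 (42.7 to 9464), against 12.1 in matched cells; the E9.5 libraries themselves stood 33.9-fold apart (5.09 to 1440), with 13 UMIs in 129_E9.5. Hoxd12 had a ratio of 124 (22 to 4902), close to the 101 of matched cells. Cyp26b1, which degrades retinoic acid, was not counted at E9.5 and reached 144 CPM, at least 25.7-fold higher, and Tfap2b was at least 20.9-fold higher. Cyp26b1 had 1 UMI in 129_E9.5 (4.87 CPM). Plpp3 (16.8), Epha4 (12.3), Hey1 (12.1) and Lmo2 (10.7) followed, with ratios of 3.16, 7.76, 5.15 and 2.29 in matched cells. Hand2 (3.64, 2.59 to 5.26) and Bmp4 (2.47, 1.96 to 3.14) were higher at E10.5 where matched cells had 1.72 and 0.795. At the other end were Hoxb9 (228 to 5.37 CPM; ratio 0.0236), Jaml (0.0336), the histone gene Hist1h2ap (0.0425), Pkdcc (0.0887), Sema3a (0.116), Prtg (0.120), Hmga1 (0.125) and the embryonic globin Hbb-bh1 (0.162). In matched cells Hoxb9, Hist1h2ap, Prtg, Hmga1 and Hbb-bh1 had like ratios (0.0185, 0.0357, 0.121, 0.0944 and 0.191), while Jaml, Pkdcc and Sema3a had 0.162, 0.670 and 0.268. The other E9.5 library was also low in part of these genes. In Shh-positive cells of 129_E9.5 over B6_E9.5 the ratio was 0.0457 for Jaml, 0.0714 for Hmga1, 0.132 for Hist1h2ap, 0.302 for Hbb-bh1, 0.385 for Hoxb9 and 0.434 for Pkdcc, with intervals below 1, and 0.539 for Sema3a and 0.690 for Prtg, with intervals that include 1. Jaml and Hmga1 thus stood high in B6_E9.5 beside both other libraries, the E9.5 one included. In 129_E9.5 over B6_E9.5, the same limits put 95 of 1902 genes (4.99%) above and 87 (4.57%) below, and 71 and 104 with TMM factors (shift of -0.08). Hoxd11 had a ratio of 11.9 (6.32 to 24.5) there against 4.14 in matched cells, and Bmp4 2.43 (1.78 to 3.32) against 1.09. Strain, reaction and the exact age of the embryos cannot be told apart in that pair.

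The difference between Shh-positive and matched cells was also set out by library, as log2 ratios of CPM, for 10 genes chosen after their values were seen. Since E10.5 is 1 library, no test of stage was made, and stage and reaction cannot be told apart. Bmp4 had a ratio of 1.05 in B6_E9.5, of 2.68 at E10.5 and of 2.20 in 129_E9.5, so the E9.5 libraries lay further from each other than 129_E9.5 from E10.5. Tril had 0.44, 1.81 and 1.39 in the same order, which is the same arrangement. Apcdd1 had 0.68, 2.17 and 1.12, Dusp6 -0.07, 1.01 and 0.28, and Etv4 -0.21, 1.13 and 0.55, highest at E10.5 in each case. Meis2 (-0.65, -2.03 and -0.75) and Crabp2 (-0.57, -1.59 and -0.71) were lowest at E10.5, with E9.5 libraries that lay close together. Asb4 (-0.17, -2.41 and -1.29) and Meis1 (-0.72, -3.39 and -2.66) were lowest there too, but their E9.5 libraries differed. Hoxd11 (1.23, 0.52 and 2.76) was highest in 129_E9.5. Ptch1 had ratios of 1.36, 1.5 and 2.47, Tbx3 1.72, 1.58 and 2.01, and Gas1 -2.30, -2.24 and -1.03. For these genes the 129_E9.5 ratio lay furthest from the others. It rests on 21 UMIs of Ptch1, 25 of Tbx3 and 20 of Gas1 in Shh-positive cells. These differences between libraries were not set against counting error.

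**Figure D4:**
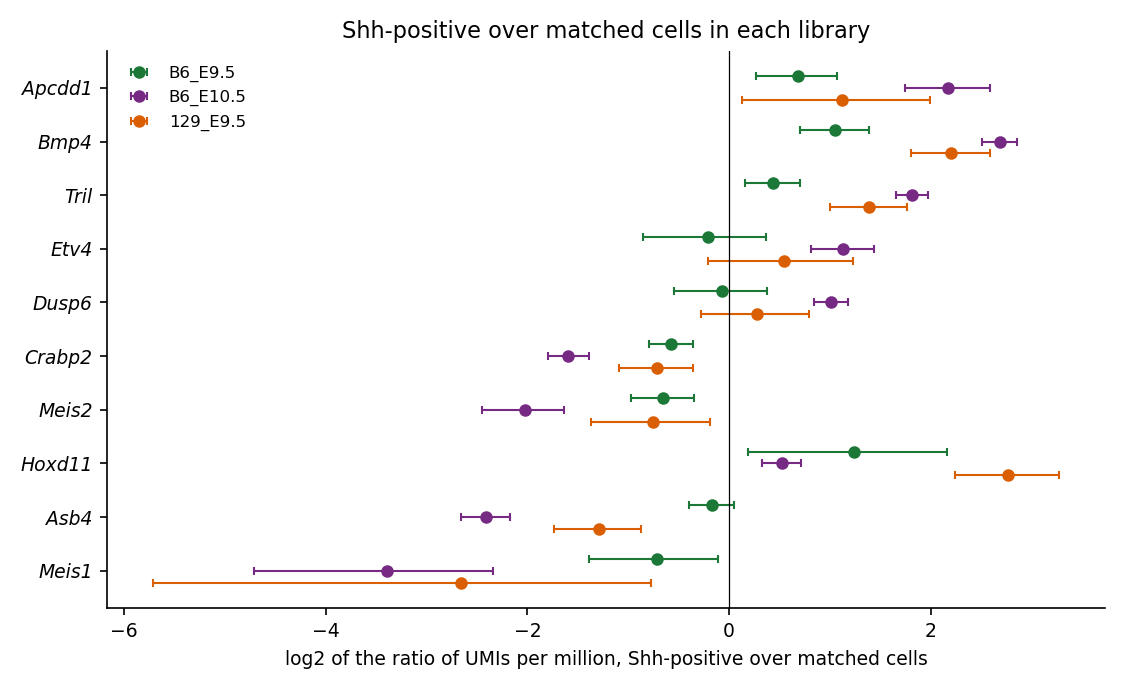
Log2 ratio of CPM (horizontal axis) of Shh-positive over matched cells in each library for 10 genes chosen after their values were seen, with exact 95% intervals for counting error. For Apcdd1, Bmp4 and Dusp6 the B6_E10.5 point lies right of both E9.5 points, and for Asb4 and Meis2 left of both, while Hoxd11 is highest in 129_E9.5.

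Within the 134 Shh-positive cells of B6_E10.5 the Shh count went with some genes and not with others. Across cells with 1 UMI (64 cells), 2 UMIs (25 cells) and 3 or more (45 cells), Bmp4 stood at 316, 424 and 485 CPM, Cck at 45.2, 79.8 and 146, and Tfap2b at 72.3, 134 and 153. Lmo2 was at 126, 227 and 259 and Dusp6 at 244, 302 and 380. For these 5 genes the intervals of the lowest and the highest class did not overlap. Hand2 (271, 239 and 256 CPM), Ptch1 (102, 113 and 103) and Hoxd13 (165, 202 and 201) had overlapping intervals throughout. Hand2 was at 70.2 CPM in the matched cells, which were matched in depth to all 134 cells and not to the 64 with 1 UMI. Median depths were 6808.5, 8527 and 9544 UMIs across the classes. Cells of 1 library are not replicates, so no test was made.

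**Figure D5:**
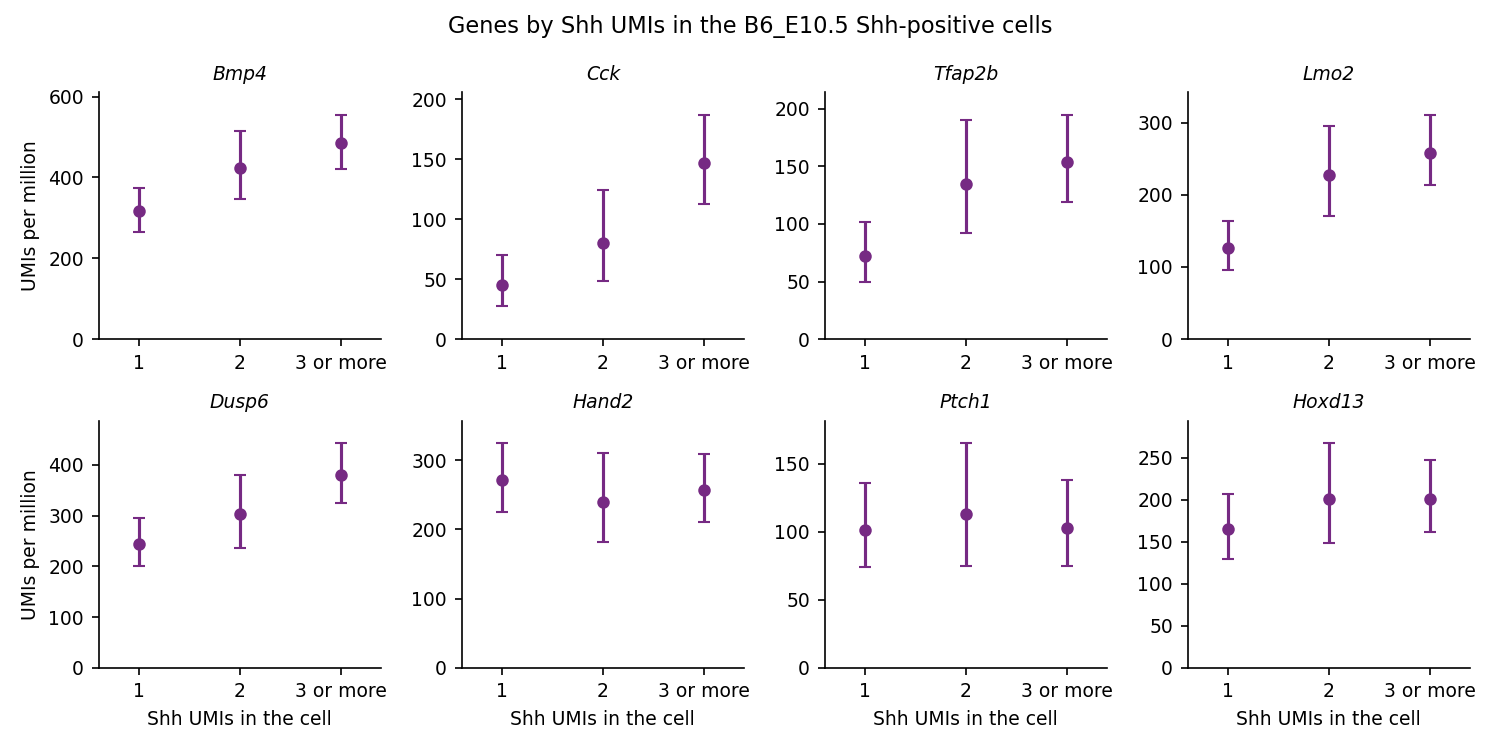
CPM (vertical axes, each from 0) of 8 genes in B6_E10.5 Shh-positive cells grouped by their Shh UMIs (horizontal axis), with exact 95% Poisson intervals. Bmp4, Cck, Tfap2b, Lmo2 and Dusp6 are highest in the class of 3 or more, and the Hand2, Ptch1 and Hoxd13 intervals overlap across classes.

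Other splits of these cells were also compared. The 45 with a Hoxa13 UMI had Hoxd13 at 279 CPM and Tfap2b at 176, against 138 and 86.1 in the 89 without, at like median depths of 8130 and 7955 UMIs. The 26 with an Lmx1b UMI, a mark of dorsal mesenchyme, had Nrp2 at 816 CPM against 333 in the 108 without. The 51 with a Tfap2b UMI had Hoxd13 at 277 CPM, Lmo2 at 298 and Dusp6 at 420 against 118, 124 and 225 in the 83 without, and Tbx3 at 62.1 against 126; their median depth was 9448 against 7307. The 30 with a Cck UMI had Bmp4 at 530 CPM against 366 in the 104 without. In the 32 cells without a Hand2 UMI, Hoxd13 was at 103 CPM against 207 in the 102 with one. For the values given so far in these splits the intervals did not overlap. Intervals overlapped for Hoxd13 by Cck (131 against 204 CPM) and for Sox9 and for Col1a2 by Hand2 (each 61.2 without a Hand2 UMI against 23.2 with one). Those splits are descriptions of 1 library, and a UMI missing from a shallow cell does not show that the gene was off.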

How the data were processed

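The authors deposited 1 matrix of raw UMI counts, with no normalization, for 15122 genes and 43950 cells of 3 libraries, with a table of each cell's stage, strain and cluster; per the submitters' processing notes, Cell Ranger 3 and the mouse build mm10 were used. How cells were filtered and clustered is not stated there, and cells held 501 to 38723 UMIs. The stage and strain columns gave the library of each cell. Barcodes of 1728 cells, 4 of them Shh-positive, also occur in another library and were kept apart. No doublet caller was run. Clusters were given names by marker genes. Symbols were matched to 15119 genes by identifier, and coordinates are from GENCODE M21 (GRCm38).

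Shh-positive cells and lists were chosen with earlier results of these data known. Comparison cells were the 10 nearest in total UMIs in the same library, without replacement. Summed counts were tested with edgeR 4.0.16 (TMM factors, quasi-likelihood, library plus cell class, mean of at least 10 CPM over the 6 sums, Benjamini-Hochberg adjustment). Shh was left out of the test, and Hand2 too where it chose the comparison cells. The genes named were those with a fixed role in limb patterning, the 12 of smallest p in each direction, the 8 of smallest p in each direction against Hand2-positive cells, list members that were called plus up to 4 with most UMIs, and the 8 largest and 8 smallest stage ratios whose interval left out 1; ribosomal, mitochondrial and uncharacterised genes were counted but not named. The 9 list genes without a row of that symbol were not used here.

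Shares carry exact Clopper-Pearson 95% intervals, CPM values exact Poisson intervals and ratios conditional binomial intervals. Where no UMI was counted, the limit was set at 3 counts. On simulated counts with known changes in the first comparison, 2 to 2.07% of edgeR's calls were false, and 44 to 96% of 2-fold and 98 to 100% of 4-fold changes were recovered at dispersions of 0.05 and 0.001. The changed genes of that simulation were drawn from those of at least 30 CPM, with the same fold in all 3 libraries. Of the 198 real calls, 119 were of genes tested at a mean of at least 30 CPM. The simulated rates therefore do not cover lower genes, nor genes whose change differed between libraries. Alternatives were DESeq2 1.42.0, other factors, filters, depths and cell sets. Some genes that the naming rule selects are not reported here.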

Additional observations from a re-analysis of the deposited data

Results flagged for a closer look

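In 3 of the genes named for the first comparison, the log2 ratio of CPM in Shh-positive over matched cells had one sign in B6_E10.5 and the other in both E9.5 libraries. With 1 library at E10.5 this difference was not tested, and stage and reaction cannot be told apart. Hoxd9 came to -0.90 at E10.5 (90.3 over 168 CPM), against 0.22 in B6_E9.5 (459 over 394) and 0.13 in 129_E9.5 (428 over 390), and the interval of the 129_E9.5 ratio included 1. Col2a1 came to -1.78 at E10.5 (12.5 over 43.0 CPM), while the E9.5 values rest on 3 UMIs in B6_E9.5 (5.6 over 4.67 CPM) and 1 UMI in 129_E9.5 (4.87 CPM in both kinds of cell). Smo came to 0.085 at E10.5, against -0.24 in B6_E9.5 and -0.14 in 129_E9.5, and the interval of its ratio included 1 in each library.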

How the results depend on the processing

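The libraries pair the sums, since each gives both kinds of cell, and without that replicate block edgeR called 0 genes in either direction in both comparisons, at 213 and 152 genes of unadjusted p under 0.05 against 838 and 845 with it. In the first comparison the counts of higher and lower genes were 30 and 21 with DESeq2, 59 and 59 at a mean of at least 30 CPM, 58 and 70 with at least 2 Shh UMIs, and 47 to 131 and 38 to 145 without 1 library; 53 were higher after thinning to 3000 UMIs and 219 lower with no filter on low counts. Against Hand2-positive cells they were 22 and 21 with DESeq2, 55 and 57 at 30 CPM, 56 and 69 with at least 2 Shh UMIs, and 34 to 118 and 37 to 138 without 1 library; 44 were higher after thinning and 208 lower with no filter. All 198 calls of each comparison kept their direction under DESeq2, where 51 and 43 passed. Of the named genes that were not called, some changed sign. In the first comparison Smo moved to 0.0081 with at least 2 Shh UMIs and 0.12 after thinning. There Hoxd10 moved to -0.16 with at least 2 Shh UMIs and -0.024 after thinning, and without 1 library Hoxd10 ranged from -0.024 to 0.15, Hoxd9 from -0.48 to 0.18 and Msx1 from -0.033 to 0.49. Against Hand2-positive cells Hoxd11 ranged from -0.0024 to 1.22 without 1 library and moved to -0.35 with at least 2 Shh UMIs, and Gli1 to 0.52 with DESeq2, 0.058 without the block and 0.027 after thinning. The share of limb mesenchyme with Shh was 0.0754%, 0.601% and 0.141% after thinning and 0.0930%, 0.457% and 0.0108% at 2 UMIs or more in B6_E9.5, at E10.5 and in 129_E9.5. For E10.5 over B6_E9.5, 89 genes were at least 2-fold lower without cells over 20000 UMIs and 137 higher with at least 2 Shh UMIs; 134 were lower for 129_E9.5 over B6_E9.5 without cells over 20000 UMIs. Among 22 genes fixed for the share of cells with a UMI in B6_E10.5, intervals lay apart with a higher share in Shh-positive cells for 11 and a lower share for 6, and for 10 and 3 after thinning. The cause of these changes was not tested, except that filters and fewer libraries change how many genes are tested. The small number of Shh-positive cells at E9.5, 29 and 22, limits what low genes can show there.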
